A study of Gallus gallus with 9 samples.

Results

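DF-1 chicken fibroblasts grown in suspension, in both groups labelled 3D together, were compared with attached cells of the same line, labelled 2D. The question was which genes stood at a different level in every suspension library, and which of these stood at a similar level in both suspension groups. The comparison used the mean of the 3D_E and 3D_L group means minus the 2D group mean, called the combined change here, on the log2(FPKM + 1) scale. FPKM counts sequenced fragments relative to how long a transcript is and how many fragments its library mapped, and the added 1 makes the change of a low gene smaller than its true fold. Of the 15294 genes in the table, 10436 reached 1 FPKM in at least 3 libraries and were tested. A gene changed where its adjusted p (limma, Benjamini-Hochberg over all genes tested) was under 0.05, and changed strongly where the combined change was also at least 1 in size. A shared change was a strong change with all 6 suspension libraries on one side of the 3 attached ones and the 3D_E and 3D_L means under 0.5 apart on the log2 scale. This gave 252 genes, of which 183 were higher and 69 lower in suspension.

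Fibroblasts normally grow spread on a surface. Integrins, receptors that span the cell membrane, hold them to the matrix and connect to actin stress fibres through focal adhesions, and tension on these fibres feeds into transcription through the SRF and YAP pathways. Cells that lose attachment round up, and most untransformed cells then stop dividing or die, which is why a line has to adapt before it grows in suspension. Vimentin filaments, lysosomes, autophagy and the supply of amino acids are other systems through which a cell can meet a change of shape or medium.

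DF-1 is an immortalised line that came from chicken embryo fibroblasts, and every library is labelled WT. The series describes the adaptation of this line to suspension growth without carriers, and cells of the groups 2D, 3D_E and 3D_L were sequenced, with 3 libraries each. A level printed with ± is a group's mean FPKM and its SD (n = 3), unless an SE is named. What E and L stand for is not explained in the labels, which give no age, dose or time. Nor do they state that the libraries within a group are separate cultures, so p-values measure the spread between these libraries, which may be technical. All groups share the line, so what follows describes 1 cell line. The labels name no medium, so the effects of attachment and of any change in medium cannot be told apart. In bulk RNA, fewer cells of a kind and less RNA per cell cannot be told apart either.

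Without counts, the sequencing depth of these libraries is not known, so counting error cannot be given. Steps between the values of low genes gave a relative depth of 0.874 to 1.05 across the 9 libraries, over 183 genes. The root mean square of the SD within a group was 0.12 on the log2 scale in 2D, 0.29 in 3D_E and 0.16 in 3D_L, and the 3 libraries of 3D_E stood further apart than those of the other groups. Of the fibroblast markers, 21 of 23 listed were tested, and their summed FPKM was 3954 to 4859 in 2D, 7525 to 9618 in 3D_E and 6275 to 6537 in 3D_L. The collagen gene COL1A1 reached 954.6 FPKM and the surface protein THY1 reached 788.3 FPKM in their highest library. Not all fibroblast markers were high: PDGFRA stayed at or below 0.25 FPKM in every library, and S100A4 reached 6.22 FPKM at most. Several markers that define other cell types were low: the leukocyte gene PTPRC stayed at or below 0.69 FPKM, the muscle regulator MYOD1 at or below 0.15 FPKM, the epithelial gene EPCAM at or below 0.05 FPKM, the neural crest gene SOX10 at or below 0.02 FPKM and the pluripotency gene NANOG at or below 0.09 FPKM in every library. Other markers were not low, and in their highest library the endothelial genes ERG, FLT1, LYVE1 and CDH5 reached 132.7, 70.6, 15.1 and 10.2 FPKM, the neural gene NES 94.9 FPKM, the neural crest genes EDNRB2 and MITF 46.7 and 36.4 FPKM, and the bone gene BGLAP 30.3 FPKM. The lists of PTPRC, MYOD1 and NANOG held higher members too. ARHGDIB of the blood and immune list reached 401.7 FPKM, MYOM1 of the myogenic list 27.4 FPKM and KLF5 of the pluripotency list 11.9 FPKM.

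Between attached and suspended cells, 6423 genes or 61.5% of those tested changed, 3465 of them higher in suspension (33.2%) and 2958 lower (28.3%). Strong changes numbered 1306 genes, or 12.5%, with 804 higher (7.7%) and 502 lower (4.81%). The 6 suspension libraries lay on one side of the attached ones in 47.4% of all genes tested, above in 25.2% and below in 22.1%. The shared changes were 2.41% of the genes tested, 1.75% higher and 0.661% lower. Of the strongly changed genes, 1258 of 1306 had all suspension libraries on one side, and 252 of 1306, or 19.3%, were shared. A further 922 genes (70.6%) stood further from 2D in 3D_E and 70 genes (5.36%) stood further in 3D_L, by at least 0.5 with a called difference between the suspension groups. The remaining 14 strong genes with one-sided libraries were at least 0.5 apart without such a call. The 3D_E and 3D_L groups differed from each other in 5591 genes, or 53.6%.

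**Figure D1:**
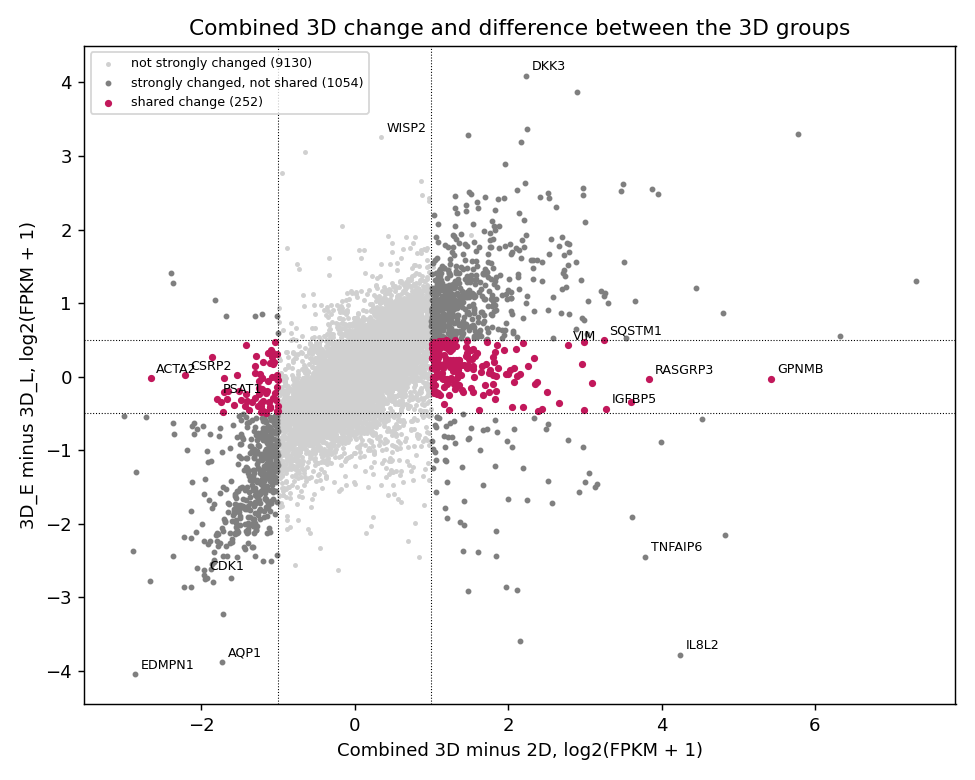
Each point is 1 of the 10436 genes tested, with the combined change of both suspension groups against 2D on the x axis and 3D_E minus 3D_L on the y axis, both as differences in mean log2(FPKM + 1). The 252 shared genes, coloured, lie between the dotted lines at -0.5 and 0.5 and beyond those at -1 and 1, while most other strongly changed genes slope from lower left to upper right, further from 2D in 3D_E.

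The similarity limit does not mean that the suspension groups were equal. Of the 252 shared genes, 74 still had a called difference between 3D_E and 3D_L, and 249 had a 95% interval of that difference within -1 and 1. Among the leading genes, the interval of IGFBP5 (-1.08 to 0.207) and that of SELENOH (-0.405 to 1.27) reached beyond these limits, so their similarity is uncertain. The 3D_E mean was the higher one in 126 of the 183 shared rises and in 21 of the 69 shared falls. The median 2D level was 4.43 FPKM in the shared rises, 26.45 FPKM in the shared falls and 14.8 FPKM over all genes tested. The choice of genes sets this contrast in part, since a fall of 1 on this scale needs a 2D level of at least 1 FPKM, and the 49 rises under 1 FPKM in 2D passed the filter through suspension libraries. The combined change of the rises ran from 1.01 to 5.43 with a median of 1.28. That of the falls ran from -2.66 to -1.002 with a median of -1.21. At the limit of 1, PTPRK (combined change -1.002) and WNT5B (-1.004) lay just inside, and CD164L2 (0.999) and CNN2 (-0.997) just outside. At the limit of 0.5, SQSTM1 and PHLDB2 lay just inside (3D_E minus 3D_L of 0.497 for both), and UBASH3B (0.5005) and TMC3 (-0.504) just outside.

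The gene with the largest shared rise was GPNMB, a membrane glycoprotein of lysosomes and related organelles. GPNMB was at 0.04, 0.09 and 0.07 FPKM in the 2D libraries, at 51.3, 53.1 and 32.6 FPKM in 3D_E and at 50.5, 45.2 and 41.3 FPKM in 3D_L. All 6 suspension libraries were far above the attached ones and the suspension groups overlapped, for a combined change of 5.43 ± 0.15 (SE; adjusted p = 5.8e-09). That every suspension library lay above 2D and that both suspension groups were similar follow from the choice of shared genes. GPNMB also passed the filter only through suspension libraries. SQSTM1 encodes an autophagy receptor that brings ubiquitinated cargo to autophagosomes. SQSTM1 was at 76.7, 72.4 and 76.2 FPKM in the 2D libraries, at 759, 875 and 949.6 FPKM in 3D_E and at 604, 577 and 644 FPKM in 3D_L. The 3 libraries of 3D_E stood above those of 3D_L, and both groups far above 2D, for a combined change of 3.25 ± 0.09 (SE; adjusted p = 5.8e-09).

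VIM encodes vimentin, the main intermediate filament protein of fibroblasts, and it was among the most abundant transcripts of the shared group. VIM was at 323, 307 and 330.2 FPKM in the 2D libraries, at 3019.6, 2537 and 2185.2 FPKM in 3D_E and at 1833, 1843 and 2021 FPKM in 3D_L. Every suspension library was above every attached one, as the choice of shared genes requires. The 3D_E level was above that of 3D_L, with a combined change of 2.78 ± 0.11 (SE; adjusted p = 5.3e-08). PRPH encodes peripherin, an intermediate filament protein of the same type best known from peripheral neurons. PRPH was at 2.75, 3 and 2.11 FPKM in the 2D libraries, at 15.98, 19.3 and 23.04 FPKM in 3D_E and at 25.6, 22.6 and 26.7 FPKM in 3D_L. It was also higher in every suspension library, again by choice, with a combined change of 2.67 ± 0.13 (SE; adjusted p = 1.6e-07).

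RASGRP3 encodes an exchange factor that activates Ras family GTPases. RASGRP3 was at 1.02, 1.39 and 1.13 FPKM in the 2D libraries, at 25.3, 30.2 and 34.8 FPKM in 3D_E and at 32.3, 30.7 and 28.8 FPKM in 3D_L. The suspension groups overlapped and attached cells were near 1 FPKM, for a combined change of 3.84 ± 0.11 (SE; adjusted p = 6.2e-09). DUSP7 encodes a phosphatase that inactivates ERK kinases. DUSP7 was at 7.73, 7.46 and 7.54 FPKM in the 2D libraries, at 62.5, 49.9 and 32.2 FPKM in 3D_E and at 39.7, 39.6 and 36.9 FPKM in 3D_L. Its 3D_L values lay within the range of 3D_E, for a combined change of 2.34 ± 0.17 (SE; adjusted p = 2e-06). FLI1, a transcription factor of the ETS family that is also an endothelial marker, was at 1.84 ± 0.0808 FPKM in 2D, 13.1 ± 1.43 FPKM for 3D_E and 14.02 ± 0.319 FPKM for 3D_L, for a combined change of 2.35 ± 0.08 (SE; adjusted p = 2.8e-08). IGFBP5 encodes a secreted protein that binds insulin-like growth factors. IGFBP5 was at 8.16, 6.33 and 8.54 FPKM in the 2D libraries, at 41.2, 75.9 and 113 FPKM in 3D_E and at 97.99, 90.3 and 100.4 FPKM in 3D_L. Its 3D_E libraries spread more widely than those of 3D_L, and the SE of its change was wide as well, for a combined change of 3.28 ± 0.25 (SE; adjusted p = 3.2e-06). That RASGRP3, DUSP7, FLI1 and IGFBP5 lay above 2D, with suspension means under 0.5 apart, follows from the choice of shared genes.

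KCNK4, a potassium leak channel that responds to membrane stretch in mammals, was at 8.63 ± 0.674 FPKM in 2D, 64.4 ± 3.56 FPKM for 3D_E and 88.7 ± 8.06 FPKM for 3D_L, for a combined change of 2.99 ± 0.08 (SE; adjusted p = 6.7e-09). It stood higher in 3D_L than in 3D_E. EXOC3L, a relative of a subunit of the exocyst, was at 2.09 ± 0.275 FPKM in 2D, 24.6 ± 0.0907 FPKM for 3D_E and 21.8 ± 1.26 FPKM for 3D_L, for a combined change of 2.97 ± 0.08 (SE; adjusted p = 5.8e-09). RAB26, a small GTPase of secretory vesicles, was at 2.03 ± 0.359 FPKM in 2D, 15.1 ± 3.27 FPKM for 3D_E and 17.5 ± 0.572 FPKM for 3D_L, for a combined change of 2.51 ± 0.13 (SE; adjusted p = 2.6e-07). FAM129A, also known as NIBAN1 and raised by stress in mammals, was at 4.78 ± 0.541 FPKM in 2D, 26.6 ± 8.17 FPKM for 3D_E and 35.5 ± 4.41 FPKM for 3D_L, for a combined change of 2.44 ± 0.17 (SE; adjusted p = 1.9e-06). In all 4 genes every suspension library lay above every attached one, as the choice of shared genes requires.

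The gene with the largest shared fall was ACTA2, smooth muscle alpha-actin, an actin that marks contractile fibroblasts. ACTA2 was at 1739, 1948 and 1906 FPKM in the 2D libraries, at 442, 260.2 and 216 FPKM in 3D_E and at 316, 301 and 275 FPKM in 3D_L. The suspension groups overlapped and lay far below 2D, with a combined change of -2.66 ± 0.19 (SE; adjusted p = 2.1e-06). That ACTA2 was below 2D in every suspension library, with similar group means, follows from the choice of shared genes. Actins are near-identical and can share reads, and how the authors assigned such reads is not given, so this level is less certain. PSAT1 encodes an aminotransferase of serine synthesis. PSAT1 was at 53.6, 62.4 and 54.2 FPKM in the 2D libraries, at 18.1, 13.4 and 11.2 FPKM in 3D_E and at 16.6, 18.1 and 17.7 FPKM in 3D_L. The fall was similar in both suspension groups, as the choice of shared genes requires, with a combined change of -1.79 ± 0.13 (SE; adjusted p = 2.2e-06).

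FGF2 encodes a fibroblast growth factor. FGF2 was at 17.5, 24.6 and 21.98 FPKM in the 2D libraries, at 5.15, 6.6 and 3.31 FPKM in 3D_E and at 6.53, 6.58 and 6.28 FPKM in 3D_L. All suspension libraries lay below all attached ones, as the choice of shared genes requires, with a combined change of -1.74 ± 0.17 (SE; adjusted p = 1.5e-05). MET encodes the receptor for hepatocyte growth factor. MET was at 21.8, 20.9 and 23.4 FPKM in the 2D libraries, at 4.8, 5.75 and 6.96 FPKM in 3D_E and at 7.91, 8.07 and 7.59 FPKM in 3D_L. Its level was lower still in 3D_E than in 3D_L, with a combined change of -1.57 ± 0.10 (SE; adjusted p = 1.1e-06).

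CMSS1 was at 57.8 ± 4.49 FPKM in 2D, 15.7 ± 0.569 FPKM for 3D_E and 18.5 ± 3.07 FPKM for 3D_L, for a combined change of -1.71 ± 0.10 (SE; adjusted p = 6.4e-07). LYPLAL1, a lipase-like enzyme, was at 27.9 ± 1.47 FPKM in 2D, 9.03 ± 0.375 FPKM for 3D_E and 8.91 ± 0.935 FPKM for 3D_L, for a combined change of -1.54 ± 0.08 (SE; adjusted p = 3.5e-07). PPIF, a mitochondrial cyclophilin that regulates the permeability pore, was at 14.1 ± 0.81 FPKM in 2D, 3.85 ± 0.332 FPKM for 3D_E and 5.05 ± 0.686 FPKM for 3D_L, for a combined change of -1.48 ± 0.09 (SE; adjusted p = 8.7e-07). In these 3 genes all 6 suspension libraries lay below every attached one, as the choice of shared genes requires. RBPMS, an RNA-binding protein that controls splicing in smooth muscle of mammals, was at 72.7 ± 4.36 FPKM in 2D, 24.02 ± 3.43 FPKM for 3D_E and 30.5 ± 3.73 FPKM for 3D_L, for a combined change of -1.40 ± 0.11 (SE; adjusted p = 3.8e-06). DERA, an aldolase that breaks down deoxyribose phosphate, was at 26.5 ± 1.33 FPKM in 2D, 8.69 ± 1.28 FPKM for 3D_E and 11.3 ± 0.656 FPKM for 3D_L, for a combined change of -1.34 ± 0.09 (SE; adjusted p = 1.8e-06). TRIQK was at 10.8 ± 0.712 FPKM in 2D, 2.39 ± 0.607 FPKM for 3D_E and 3.16 ± 0.393 FPKM for 3D_L, and SLC4A11, a transporter of the bicarbonate transporter family, at 33.6 ± 1.005 FPKM in 2D, 11.8 ± 1.07 FPKM for 3D_E and 14.6 ± 1.6 FPKM for 3D_L. SELENOH, a selenoprotein of the nucleus, varied most between the 3D_E libraries of these falls. SELENOH was at 63.1, 53.7 and 49.3 FPKM in the 2D libraries, at 10.9, 27.2 and 41.8 FPKM in 3D_E and at 14.8, 15.6 and 21.3 FPKM in 3D_L. Its 3D_E libraries reached from near the 2D values to below the 3D_L values, for a combined change of -1.42 ± 0.32 (SE; adjusted p = 0.0037). This SE and this adjusted p were the largest among the leading genes, while the change itself was not the smallest.

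**Figure D2:**
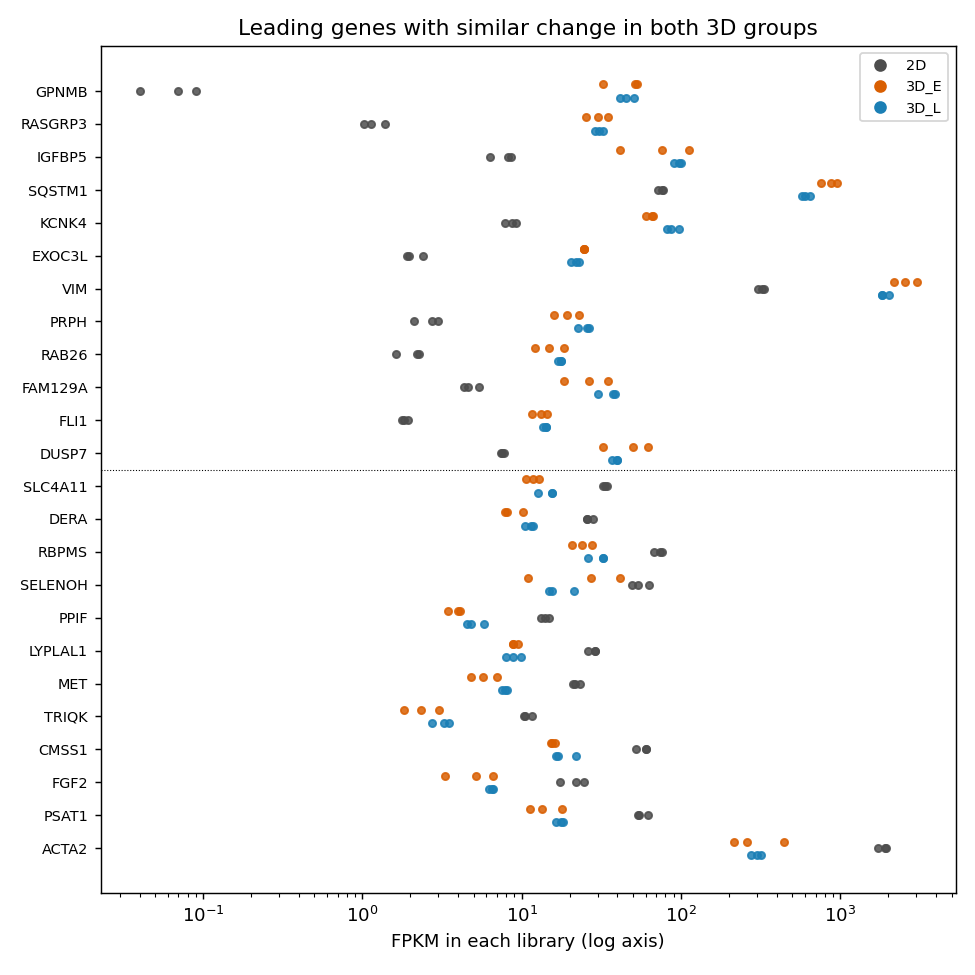
FPKM of each of the 9 libraries on a log axis for the 24 leading shared genes, with 12 rises above the dotted line and 12 falls below it, and with the groups in separate colours. In each gene the 6 suspension points lie on one side of the 3 points of 2D, as the choice of genes requires, while the gap between the groups is widest in GPNMB.

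In the genes of actin and contraction, 6 of 47 tested members rose and 30 fell, against 33.2% and 28.3% of all genes, and the median combined change was -0.58 beside 0.04 over all genes tested. Of the 47, 5 were shared, or 10.6% beside 2.41% of all genes. The shares over all genes, 33.2% risen, 28.3% fallen and 2.41% shared, also apply to each list below. CSRP2 encodes a LIM domain protein of the smooth muscle cytoskeleton. CSRP2 was at 3.7, 4.76 and 4.24 FPKM in the 2D libraries, at 0, 0.14 and 0.28 FPKM in 3D_E and at 0.12, 0 and 0.24 FPKM in 3D_L. All suspension libraries were under 1 FPKM and some were listed at 0. PDLIM5, a scaffold of actin bundles, was at 170 ± 2.27 FPKM in 2D, 76.4 ± 2.23 FPKM for 3D_E and 62.6 ± 0.973 FPKM for 3D_L, for a combined change of -1.29 ± 0.06 (SE; adjusted p = 2.1e-07). TPM1, a tropomyosin that stabilises actin filaments, was at 1345 ± 46.2 FPKM in 2D, 746 ± 97.6 FPKM for 3D_E and 597 ± 32.8 FPKM for 3D_L, for a combined change of -1.01 ± 0.10 (SE; adjusted p = 1.4e-05). ARPC1B, a subunit of the complex that makes branched actin, went the other way at 154 ± 5.92 FPKM in 2D, 302 ± 29.2 FPKM for 3D_E and 354 ± 17.7 FPKM for 3D_L, for a combined change of 1.08 ± 0.08 (SE; adjusted p = 3.4e-06). The smooth muscle markers LMOD1 and MYOCD also fell, by 2.37 and 1.73, but differed between the suspension groups. These were the largest changes among the 5 smooth muscle markers tested, of which 3 fell and 1 rose.

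Focal adhesion and integrin genes were mixed, with 12 of 51 rising, 23 falling and a median of -0.24. Where the 6 suspension libraries were treated as 1 group, 3 rose, so the count of rises depends on the fit. Both shared members rose. ITGB5, an integrin beta chain that pairs with the alpha-V chain to bind vitronectin, was at 132 ± 7.93 FPKM in 2D, 331 ± 59.4 FPKM for 3D_E and 378 ± 9.15 FPKM for 3D_L, for a combined change of 1.41 ± 0.11 (SE; adjusted p = 3.2e-06). ITGA7, a laminin-binding integrin chain best known from muscle, was low at 0.233 ± 0.0603 FPKM in 2D, 1.97 ± 0.465 FPKM for 3D_E and 2.15 ± 0.393 FPKM for 3D_L. The list of YAP and TEAD targets also holds factors of the pathway itself, such as YAP1, TEAD1 and LATS1. Of its 27 tested members, 12 rose and 9 fell. No member was shared, and with a share of 2.41% over all genes nothing is read from that in so short a list. The largest changes were in ANKRD1 (combined change 1.52) and BIRC5 (-1.40), and ANKRD1 was at 3.25 ± 0.319 FPKM in 2D, 28.5 ± 7.36 FPKM for 3D_E and 4.17 ± 0.425 FPKM for 3D_L. Both calls were lost with the suspension libraries as 1 group, at adjusted p = 0.11 and 0.058. BIRC5 also stands in the mitosis list, where 65 of 66 genes fell. Over the settings tried, the rises in the YAP and TEAD list ran from 4 to 13 and the falls from 3 to 10.

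Intermediate filament genes other than those above included KRT7, a keratin of simple epithelia, at 3.93 ± 0.304 FPKM in 2D, 1.73 ± 0.93 FPKM for 3D_E and 1.11 ± 0.329 FPKM for 3D_L, which fell by 1.07. Of 19 tested members, 10 rose and 5 fell, and 3 were shared. Collagens and their enzymes had 13 risen and 13 fallen of 37 (35.1% each, near the shares over all genes). COL26A1 rose from near 0, at 0.273 ± 0.0643 FPKM in 2D, 3.47 ± 1.39 FPKM for 3D_E and 2.44 ± 0.179 FPKM for 3D_L, and COL5A2, a fibrillar collagen chain, fell, at 135 ± 11.8 FPKM in 2D, 78.5 ± 18.98 FPKM for 3D_E and 55.1 ± 3.68 FPKM for 3D_L. In the proteoglycan and matricellular genes, 30 of 47 rose and 8 fell, a median of 0.69. The shared members were THBS2, a thrombospondin, at 2.3 ± 0.573 FPKM in 2D, 6.88 ± 1.8 FPKM for 3D_E and 7.33 ± 0.639 FPKM for 3D_L, BCAN, the hyaluronan-binding proteoglycan brevican, at 39.3 ± 5.34 FPKM in 2D, 104 ± 12.9 FPKM for 3D_E and 73.9 ± 6.25 FPKM for 3D_L, and GPC4, a glypican, which fell to 115 ± 22.5 FPKM in 3D_E and 134 ± 3.72 FPKM for 3D_L. Matrix proteases and their inhibitors had 20 risen and 3 fallen of 33, with no shared member, and CTSK (combined change 2.77) stood higher in 3D_E, at 1915 FPKM beside 529 FPKM in 3D_L. TIMP3 rose by 2.34, but its 3D_E and 3D_L means were 0.56 apart.

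Lysosome genes rose more often than those of any other pathway list. Of 82 tested members, 61 rose and 5 fell (74.4% and 6.1%), beside 33.2% and 28.3% of all genes, and the median was 0.76. NPC2 carries cholesterol out of the lysosome. NPC2 was at 63.5, 56.2 and 61.99 FPKM in the 2D libraries, at 258, 263 and 219 FPKM in 3D_E and at 193, 184 and 206 FPKM in 3D_L. Every suspension library stood above all attached ones, as the choice of shared genes requires. The 3D_E libraries stood above those of 3D_L, for a combined change of 1.84 ± 0.09 (SE; adjusted p = 1.7e-07). GM2A helps degrade gangliosides, and its levels were 8.55 ± 0.919 FPKM in 2D, 31.04 ± 2.5 FPKM for 3D_E and 33.3 ± 1.46 FPKM for 3D_L. The alpha-galactosidase GLA was at 10.9 ± 0.378 FPKM in 2D, 39.9 ± 15.1 FPKM for 3D_E and 31.1 ± 2.89 FPKM for 3D_L, for a combined change of 1.57 ± 0.21 (SE; adjusted p = 0.00013), and the major membrane protein LAMP1 at 98.5 ± 5.79 FPKM in 2D, 236 ± 71.8 FPKM for 3D_E and 174 ± 5.15 FPKM for 3D_L, for a combined change of 1.01 ± 0.16 (SE; adjusted p = 0.0005). GLA and LAMP1 varied widely between the 3D_E libraries: LAMP1 stood at 304, 243 and 161 FPKM in these. ATP6V1G1, a subunit of the proton pump, was also among the 7 shared members, with a combined change of 1.01.

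Autophagy genes rose in 40 of 68 cases and fell in 9, with SQSTM1 as the only shared member. Genes of the oxidative stress and NRF2 response rose in 35 of 61 cases and fell in 11, a median of 0.43. ME1, a malic enzyme that makes NADPH, was at 0.177 ± 0.129 FPKM in 2D, 3.16 ± 0.953 FPKM for 3D_E and 2.85 ± 0.193 FPKM for 3D_L. OSGIN1, an oxidative stress-induced growth inhibitor, was at 8.92 ± 0.487 FPKM in 2D, 33.6 ± 3.46 FPKM for 3D_E and 29.6 ± 1.23 FPKM for 3D_L, for a combined change of 1.71 ± 0.08 (SE; adjusted p = 2e-07). PRDX6, a peroxiredoxin, was at 109 ± 7.09 FPKM in 2D, 314 ± 18.7 FPKM for 3D_E and 290.2 ± 25.95 FPKM for 3D_L, for a combined change of 1.46 ± 0.09 (SE; adjusted p = 6e-07). These 3 and SQSTM1 were the shared members of the list.

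Amino acid supply and its ATF4 programme leaned down, with 13 risen and 32 fallen of 55 and a median of -0.42. The fall covered 5 shared members: PSAT1 and PSPH of serine synthesis, the tRNA synthetase TARS, and the transporters SLC7A1 and SLC1A4, with combined changes of -1.79, -1.10, -1.26, -1.10 and -1.11. Of the shared members, 2 rose. SLC6A6, the taurine transporter, went from 0.03 FPKM in 2D to 4.22 ± 0.899 FPKM in 3D_E and 3.7 ± 0.552 FPKM for 3D_L, and ASS1, an enzyme of arginine synthesis, was at 10.7 ± 0.45 FPKM in 2D, 34.7 ± 2.34 FPKM for 3D_E and 32.1 ± 2.3 FPKM for 3D_L. Sterol and fatty acid synthesis had 15 risen and 34 fallen of 57, and the shared members ME1 and CPT1A, an enzyme of fatty acid oxidation (6.08 ± 1.32 FPKM in 2D, 16.4 ± 2.38 FPKM for 3D_E and 17.99 ± 4.54 FPKM for 3D_L), both rose, and neither is itself an enzyme of sterol synthesis. Heat shock genes had 9 risen and 39 fallen of 62, with the shared rise HSPB9 at 4.9 ± 0.85 FPKM in 2D, 26.5 ± 11.8 FPKM for 3D_E and 22.8 ± 2.9 FPKM for 3D_L. With the 6 suspension libraries as 1 group, the falls of the sterol list dropped to 13 and those of the heat shock list to 24. Of the endoplasmic reticulum stress genes, 10 rose and 18 fell of 50, with UFM1, a ubiquitin-like modifier, as the only shared member at 194 ± 16.6 FPKM in 2D, 79.8 ± 20.8 FPKM for 3D_E and 104 ± 8.28 FPKM for 3D_L.

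The proliferation lists moved in most members but gave no shared gene. Of 66 mitosis genes tested, 65 fell and none rose, with a median of -1.31, and 66 of 75 DNA replication genes fell while 1 rose, a median of -0.95. The fall was uneven: CDK1, the mitotic kinase, was at 477 ± 18.3 FPKM in 2D, 47.3 ± 8.14 FPKM for 3D_E and 311 ± 39.1 FPKM for 3D_L, and the difference between the suspension groups was called (E minus L -2.70, adjusted p = 4.6e-07). With the suspension libraries as 1 group the call of CDK1 was lost (adjusted p = 0.069). When the 6 suspension libraries were treated as 1 group, 13 mitosis and 28 DNA replication genes fell, and 32 of the ribosome biogenesis and MYC list. That list also holds MYC and enzymes of nucleotide synthesis such as GART, so its counts are not of ribosome biogenesis genes alone. Its members fell in 51 of 64 cases. RCL1 and GART, the changed members with the largest change, stood lower in 3D_E than in 3D_L. Ribosomal protein genes had 9 of 72 fallen and none risen, but 27 fell with median of ratios scaling, 28 with quantile normalization and 24 without 3D_E replicate 3, so this count is uncertain. The list of cell cycle inhibitors and p53 genes also holds members that are not inhibitors, such as the cyclin CCND1 and the kinase CDK6. It had 23 risen and 14 fallen of 52, and CDKN2A, a tumour suppressor locus, was its shared member. CDKN2A was at 156, 145 and 143 FPKM in the 2D libraries, at 537, 598 and 606 FPKM in 3D_E and at 374, 391 and 501 FPKM in 3D_L. Its change was 1.73, with 3D_E above 3D_L. MCL1, a survival factor of the BCL2 family, was the shared member of the apoptosis list, at 38.6 ± 1.67 FPKM in 2D, 87.6 ± 7.36 FPKM for 3D_E and 89.2 ± 1.79 FPKM for 3D_L.

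Among immediate early genes and feedback regulators of MAP kinase, 40 of 60 rose and 6 fell, a median of 0.55. Of these, 8 were shared: 7 rose, among them DUSP7, the DNA-binding inhibitor ID1 at 64.8 ± 6.24 FPKM in 2D, 200.2 ± 73.7 FPKM for 3D_E and 229 ± 42.1 FPKM for 3D_L, and the circadian repressor BHLHE41, which was low at 0.0833 ± 0.0603 FPKM in 2D, 1.17 ± 0.0964 FPKM for 3D_E and 1.97 ± 0.105 FPKM for 3D_L. MAFK, a small MAF factor, fell by 1.17. Inflammatory and NF-kB genes rose in 32 of 55 cases and fell in 14, with TNFAIP2, IL1RL1 and TRAF1 shared. TNFAIP2 was at 7.86 ± 0.859 FPKM in 2D, 26.5 ± 2.53 FPKM for 3D_E and 28.8 ± 2.34 FPKM for 3D_L, for a combined change of 1.69 ± 0.10 (SE; adjusted p = 4.7e-07). TRAF1, an adaptor of TNF receptors, was at 6.24 ± 0.345 FPKM in 2D, 18.4 ± 0.516 FPKM for 3D_E and 14.2 ± 0.481 FPKM for 3D_L. Of the TGF-beta, BMP and ID genes, 20 of 43 rose and 7 fell, with ID1 among the shared members.

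Of 49 tested growth factors and receptors, 25 rose and 13 fell, and 8 were shared, or 16.3% beside 2.41% of all genes. IGFBP5, MST1R (a receptor tyrosine kinase that binds MSP), PDGFRB (the platelet-derived growth factor receptor beta) and the insulin receptor INSR were among those that rose, and GFRA1, FGF2 and MET fell. PDGFRB was at 26 ± 2.18 FPKM in 2D, 73.1 ± 6.24 FPKM for 3D_E and 55.98 ± 6.21 FPKM for 3D_L, for a combined change of 1.27 ± 0.10 (SE; adjusted p = 3.5e-06). MST1R was at 4.13 ± 0.728 FPKM in 2D, 19.1 ± 5.34 FPKM for 3D_E and 15.3 ± 1.06 FPKM for 3D_L, and GFRA1, a co-receptor for GDNF, at 4.93 ± 0.402 FPKM in 2D, 0.807 ± 0.247 FPKM for 3D_E and 0.49 ± 0.0529 FPKM for 3D_L. MET and MST1R encode related receptors, and they moved in opposite directions, with combined changes of -1.57 and 1.81. Of Wnt pathway genes, 25 of 47 rose and 5 fell; FZD8, a Frizzled receptor, was at 1.01 ± 0.17 FPKM in 2D, 3.97 ± 0.271 FPKM for 3D_E and 4.65 ± 0.253 FPKM for 3D_L and the ligand WNT5B at 2.97 ± 0.869 FPKM in 2D, 0.66 ± 0.135 FPKM for 3D_E and 1.29 ± 0.135 FPKM for 3D_L. Guidance cues had 20 risen and 12 fallen of 39, with the semaphorin SEMA3F at 1.48 ± 0.312 FPKM in 2D, 7.84 ± 0.253 FPKM for 3D_E and 10.8 ± 1.09 FPKM for 3D_L, for a combined change of 2.05 ± 0.10 (SE; adjusted p = 2e-07).

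Mesenchymal transcription factors rose in 26 of 61 cases and fell in 15 (42.6% and 24.6%, beside 33.2% and 28.3% of all genes). The median was 0.09 beside 0.04 over all genes. The 5 shared members, 8.2% beside 2.41% of all genes, all rose. PRRX1, a homeobox factor of limb and face mesenchyme, was the most abundant of them. PRRX1 was at 135, 117 and 126 FPKM in the 2D libraries, at 361, 346 and 363 FPKM in 3D_E and at 311, 308 and 342 FPKM in 3D_L. The attached libraries stood below both suspension groups, as the choice of shared genes requires. All 3D_E libraries stood above those of 3D_L, for a combined change of 1.42 ± 0.08 (SE; adjusted p = 3.9e-07). TBX3, a T-box factor, was at 6.23 ± 0.607 FPKM in 2D, 17.1 ± 1.43 FPKM for 3D_E and 17.3 ± 1.76 FPKM for 3D_L. HOXC10 and PITX1 rose by 1.21 and 1.03. The list of calcium-binding proteins, annexins and galectins had 16 risen and 5 fallen of 40 (40% and 12.5%, beside 33.2% and 28.3% of all genes). Its shared members, 5% beside 2.41% of all genes, were CAMK1D and the calcium channel ITPR3, at changes of 1.11 and 1.02.

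Of the next lists, those of metal handling, lipid carriers and cell adhesion each had 1 shared member. These were 2.78%, 5.56% and 4.35% of their tested members, beside 2.41% of all genes. The other lists here had none, and with a share of 2.41% over all genes nothing is read from such low counts. MT4L, a metallothionein that binds zinc and copper, was the shared member of the metal list at 33.4 ± 3.5 FPKM in 2D, 75.2 ± 26.2 FPKM for 3D_E and 66.5 ± 9.73 FPKM for 3D_L, and metallothioneins resemble each other and can share reads. Of the 36 genes of the metal list, 12 rose and 10 fell (33.3% and 27.8%, near the shares over all genes). Without 3D_E replicate 1, 13 rose and 16 fell. Glycolysis and citrate cycle genes had 14 risen and 21 fallen of 62, respiratory chain genes 11 and 11 of 60, hypoxia genes 16 and 8 of 34, interferon genes 10 and 8 of 37, and no member of these 4 lists was shared. These 4 splits were unsteady: the respiratory rises ran from 4 to 18 over the settings, and with the suspension libraries as 1 group 8 glycolysis genes rose and 5 fell. RBP5, a retinol-binding protein, was the shared lipid carrier at 2.44 ± 0.847 FPKM in 2D, 7.08 ± 2.36 FPKM for 3D_E and 7.82 ± 0.519 FPKM for 3D_L, in a list with 10 risen and 3 fallen of 18. The cell to cell adhesion list had 10 risen and 8 fallen of 23. The shared member within this list was PCDH9, a protocadherin, at 2.7 ± 0.536 FPKM in 2D, 0.213 ± 0.163 FPKM for 3D_E and 0.653 ± 0.0751 FPKM for 3D_L. Adhesion genes outside the list, such as DSG4, can be shared as well. Ion channels and pumps had 20 risen and 7 fallen of 39 and none shared.

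Summed levels of markers of other cell types had different ranges in some groups, and were not tested. The 12 neural crest and pigment markers in the table summed to 24.8 to 27.6 FPKM in 2D, 84.2 to 91 in 3D_E and 46.7 to 52.2 in 3D_L, and EDNRB2, an endothelin receptor, was at 0.217 ± 0.0404 FPKM in 2D, 44.7 ± 3.07 FPKM for 3D_E and 24.1 ± 1.21 FPKM for 3D_L. The 18 endothelial markers summed to 190.6 to 199.9 FPKM in 2D, 94.1 to 129 in 3D_E and 194.6 to 233 in 3D_L. ERG, an ETS factor like FLI1, was at 122 ± 5.96 FPKM in 2D, 52.8 ± 16.1 FPKM for 3D_E and 122 ± 15.4 FPKM for 3D_L. The 20 blood and immune markers summed to 200.4 to 217.6 FPKM in 2D, 369.8 to 385 in 3D_E and 388 to 412 in 3D_L, and ARHGDIB alone was at 200.5 ± 7.74 FPKM in 2D, 369 ± 12.04 FPKM for 3D_E and 392 ± 11.3 FPKM for 3D_L. Bone and cartilage markers, 14 in all, summed to 26.4 to 34.1 FPKM in 2D, 84.5 to 96.1 in 3D_E and 42 to 42.9 in 3D_L. The 13 neural markers summed to 55.1 to 66.9 FPKM in 2D, 73.8 to 86.3 in 3D_E and 78.5 to 104.7 in 3D_L. The 11 smooth muscle markers summed to 52.1 to 57.8 FPKM in 2D, 29.9 to 44.9 in 3D_E and 27.4 to 33.1 in 3D_L. Myogenic markers, 17 in all, summed to 6.92 to 7.64 FPKM in 2D, 18.7 to 32 in 3D_E and 26.8 to 28.1 in 3D_L, and MYOM1, a sarcomere protein, was at 4.43 ± 0.271 FPKM in 2D, 21.5 ± 5.73 FPKM for 3D_E and 20.5 ± 1.25 FPKM for 3D_L. The macrophage, adipogenic, epithelial, and pluripotency and germ cell lists summed to at most 15.9, 7.34, 6.45 and 12.3 FPKM in any library. No marker in the table was at 0 in every library, and the part of other cell types in the results was not tested.

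With the 6 suspension libraries as 1 group, 18 proteoglycan genes, 14 Wnt genes and 16 mesenchymal transcription factors rose, and 21 amino acid supply genes fell, all fewer than above.

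**Figure D3:**
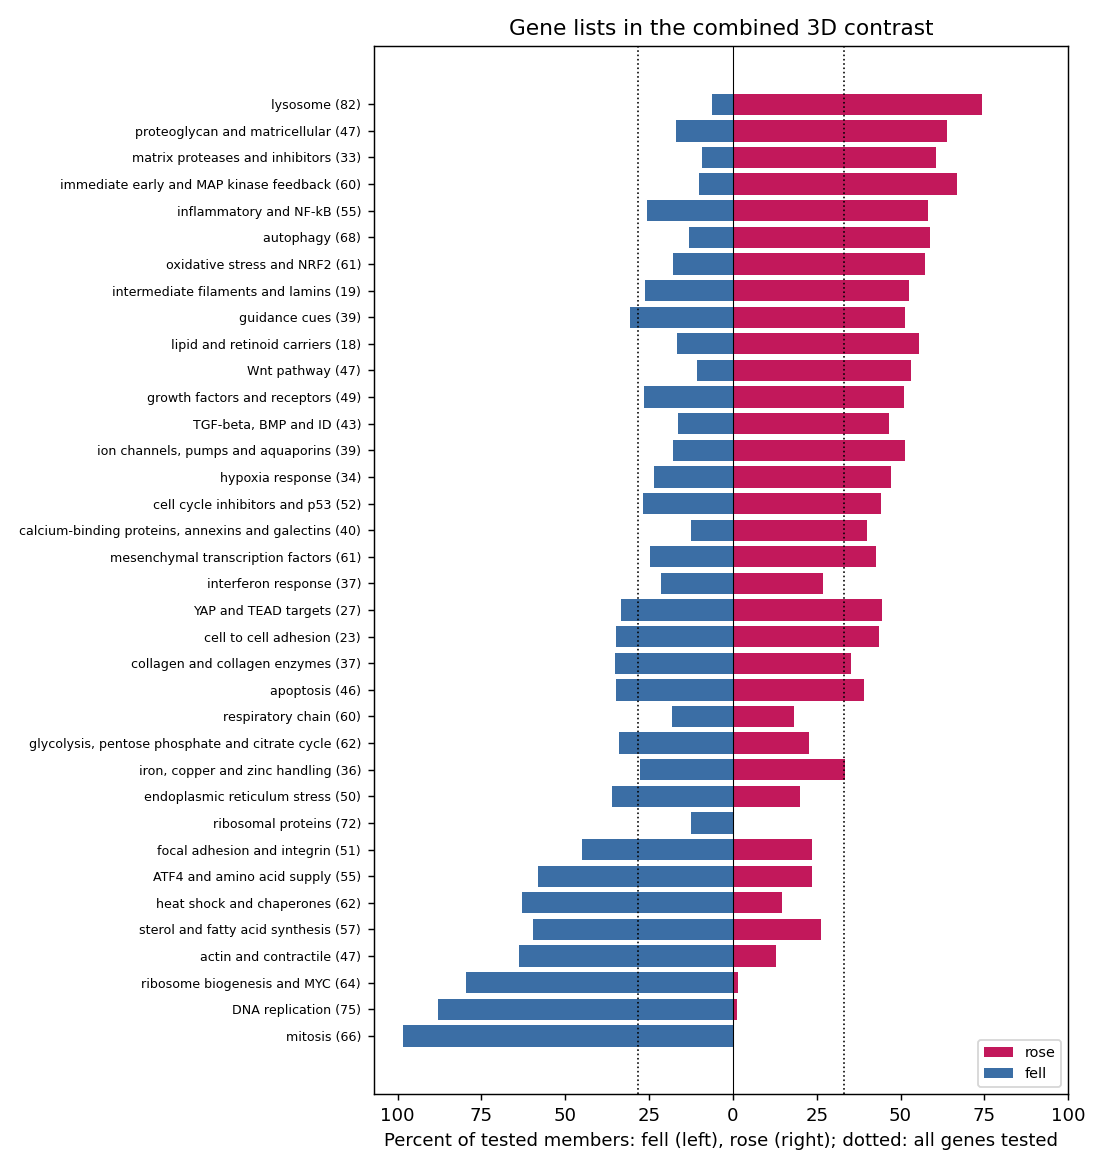
Percent of the tested members of each pathway gene list (number tested in brackets) that rose (right) or fell (left) in the combined contrast, with dotted lines at the share over all genes tested, 33.2% and 28.3%. Lists of cell type markers are not drawn, and among those drawn lysosome has the longest bar to the right at 74.4% and mitosis the longest to the left at 98.5%.

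**Figure D4:**
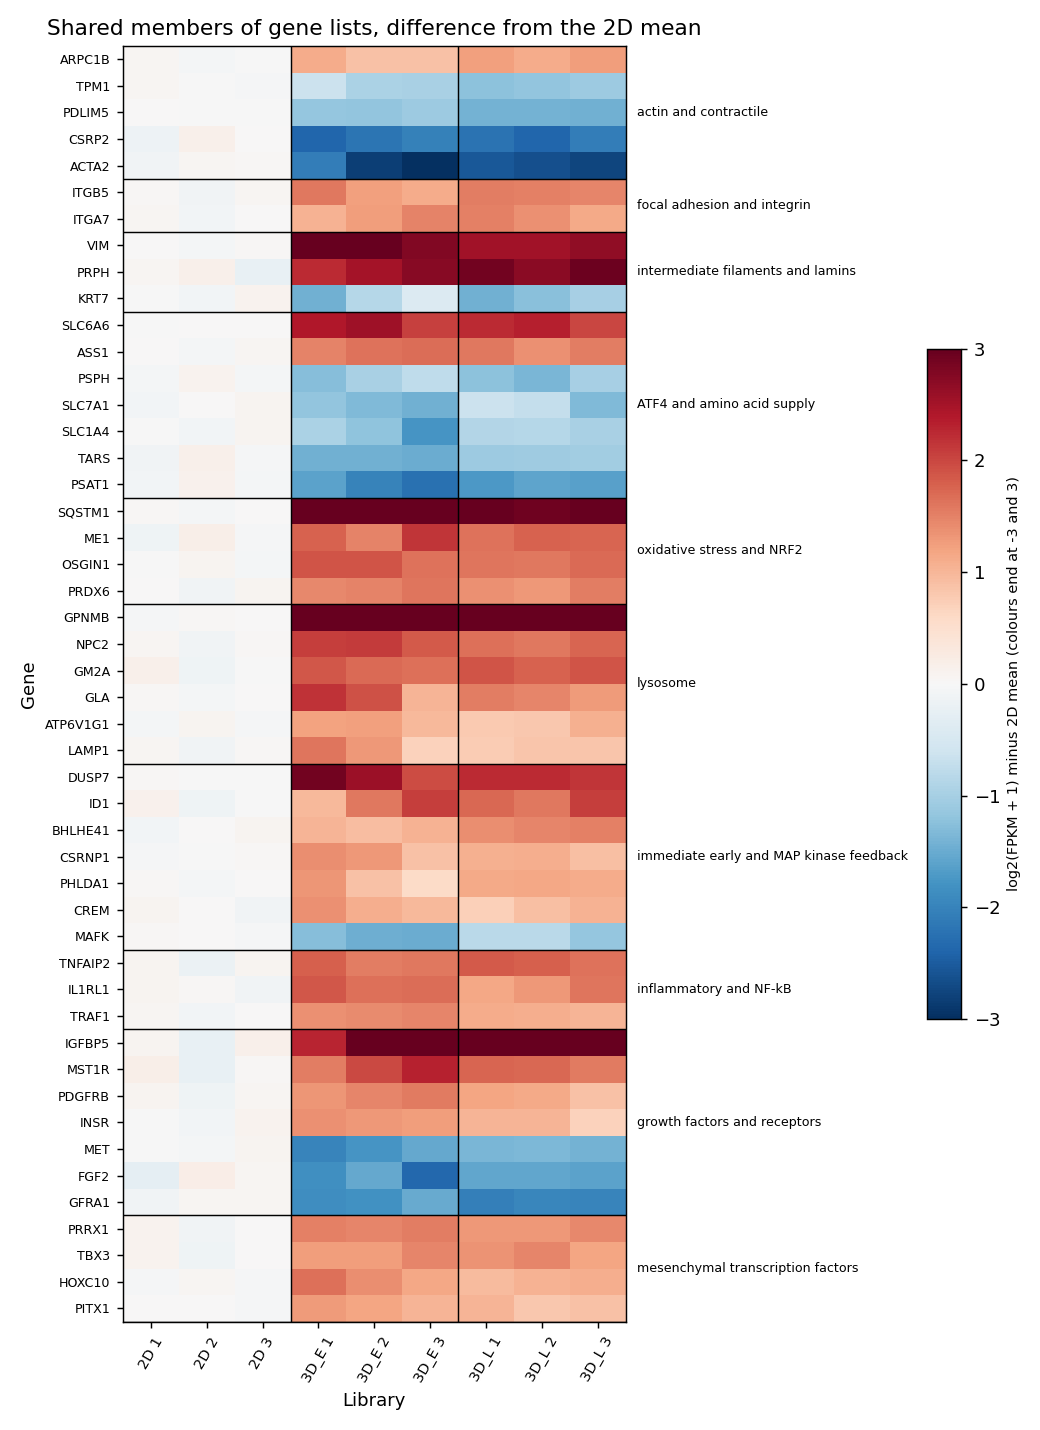
Difference of each library from the mean of 2D on the log2(FPKM + 1) scale for 48 shared members of gene lists, with libraries in columns and colours that end at -3 and 3. Each gene is drawn once, and SQSTM1 stands under oxidative stress and not under autophagy. The suspension columns share their sign within each row, as the choice of genes requires. The 3D_E columns vary more than the 3D_L columns in rows such as LAMP1 and KRT7.

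Apart from the shared genes, the suspension groups differed in several strongly changed genes. DKK3, AQP1, IL8L2, TNFAIP6 and HAS2 were chosen for the largest called differences between 3D_E and 3D_L, so that they differ follows from the choice. WISP2 was chosen because 3D_E and 3D_L lay on opposite sides of 2D. DKK3, a secreted protein of the dickkopf family, was at 0.157 ± 0.127 FPKM in 2D, 21.4 ± 1.98 FPKM for 3D_E and 0.32 ± 0.135 FPKM for 3D_L, and AQP1, a water channel, at 403 ± 11.1 FPKM in 2D, 37.1 ± 28.96 FPKM for 3D_E and 471 ± 60.6 FPKM for 3D_L, and both stood further from 2D in 3D_E. In 3D_L, the chemokine IL8L2 reached 133 ± 1.73 FPKM beside 8.86 ± 1.87 in 3D_E, TNFAIP6, a hyaluronan-binding protein, reached 330.3 ± 16.8 FPKM beside 60.01 ± 7.76, and HAS2, the hyaluronan synthase, reached 42.3 ± 1.86 FPKM beside 4.77 ± 0.44. The combined changes of DKK3, AQP1 and HAS2 were no longer called with the suspension libraries as 1 group (adjusted p = 0.14, 0.24 and 0.17), nor was that of WISP2 (0.77). WISP2, a matricellular protein, went both ways, at 49.3 ± 6.81 FPKM in 2D, 197 ± 29.1 FPKM for 3D_E and 19.6 ± 0.559 FPKM for 3D_L. GAPDH and TBP, set as reference genes, did not pass the threshold: GAPDH was at 4953 ± 61.98 FPKM in 2D, 5563 ± 255 FPKM for 3D_E and 5854 ± 338 FPKM for 3D_L (combined change 0.20, adjusted p = 0.073) and TBP at 41.7 ± 2.22 FPKM in 2D, 40.9 ± 3.03 FPKM for 3D_E and 38.4 ± 1.08 FPKM for 3D_L (-0.07, adjusted p = 0.42). GAPDH did pass under 4 other settings, and the ribosomal protein genes RPL6 and RPL5, which every cell also uses, fell by 0.44 in both cases.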

How the data were processed

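Polyadenylated RNA of 9 libraries was sequenced, and groups were taken from the sample titles, per the labels. The file headers show that the authors deposited an FPKM value for each gene in each library. Per the submitters' processing notes, the tools were HISAT2 2.0.5, DESeq2 and R 3.4.2, and GRCg6a was the build, without a stated role. How FPKM was computed, which annotation release was used and how strand was handled is not given in the sources used here. The table has 94 columns, and 82 without a name were left aside, and 1 line that names no gene was left out. Because FPKM is scaled to a library's mapped fragments, a large change in abundant genes can shift the values of the rest.

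Log2(FPKM + 1) values of genes at or above 1 FPKM in 3 or more libraries were fitted with limma 3.58.1 in R 4.3.3 (lmFit, contrasts.fit, eBayes with trend, 6 residual degrees of freedom, 2-sided, Benjamini-Hochberg over 10436 genes). The spread is pooled over groups although 3D_E varies more. The steps were tested on simulated data. No set test was made, so the 49 gene lists are described by counts. The comparison, its members and the lists were chosen with earlier results of these data known, and shared changes were chosen on the contrast that the report describes. Named were the 12 largest shared rises and falls with a symbol and at least 10 FPKM on the higher side, up to 3 shared members of each list (or 2 changed ones), 4 genes further in each suspension group, genes moving in opposite directions, those at the limits, and GAPDH and TBP. Other named genes, such as LAMP1, GLA, ATP6V1G1, TPM1, ARPC1B, PRDX6, PSPH, TARS, SLC7A1, SLC1A4, MAFK, INSR, HOXC10 and PITX1, are further shared list members that were chosen after their values were seen. The marker genes COL1A1, THY1, PTPRC, MYOD1, EPCAM, SOX10, NANOG and CDH5 were chosen as defining markers. ERG, FLT1, LYVE1, NES, EDNRB2, MITF, BGLAP and KLF5 are members of the marker lists chosen after their values were seen. Symbols are the authors' own. Some list members and 1 gene list are not reported here. Other settings tried were the limits, scaling, filter, pseudocount, the replicate number taken as a block, the model of the spread and each library left out. Same-numbered libraries of different groups had correlated deviations between -0.404 and 0.182, so the numbers were not taken as pairs. Figures were drawn with matplotlib 3.10.9.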

Additional observations from a re-analysis of the deposited data

Results flagged for a closer look

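The effects of 3D_E and 3D_L against 2D were compared by the 3D_E minus 3D_L contrast of the same limma fit, and a gene was listed where its adjusted p was under 0.05 for that difference. This held for 54 of the 117 genes named by rule, beside 53.6% of all genes tested. Further genes named in the text, such as ERG, EDNRB2, TPM1 and LAMP1, were not looked through here, so their absence below says nothing of them. The values below are 3D_E minus 3D_L on the log2(FPKM + 1) scale. DKK3, AQP1, EDMPN1, OvoDA1-2, IL8L2, HAS2, VNN1 and TNFAIP6 were named for a large called difference of this kind, so their listing follows from the choice. WISP2 was named for suspension groups on opposite sides of 2D. Groups of 3 libraries were not examined for single outlying libraries.

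Among genes of the shared group, where the means lie under 0.5 apart by choice, 3D_E was higher in BCAN (0.480), CDKN2A (0.470), COL5A2 (0.478), IL1RL1 (0.381), NPC2 (0.338), PDGFRB (0.382), PDLIM5 (0.283), PHLDB2 (0.497), SQSTM1 (0.497), TRAF1 (0.351) and VIM (0.431). It was lower in BHLHE41 (-0.453), DERA (-0.347), KCNK4 (-0.455), MET (-0.385), PCDH9 (-0.454), PPIF (-0.315), RBPMS (-0.334), SEMA3F (-0.418), SLC4A11 (-0.287) and WNT5B (-0.466).

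Among other named genes, 3D_E was higher in ANKRD1 (2.48), BHLHE40 (1.07), COMP (1.90), CTSK (1.82), DKK3 (4.09), ENO2 (1.44), LMOD1 (1.27), OvoDA1-2 (3.87), RHOB (1.70), SPP1 (2.10), UBASH3B (0.5005), VAV3 (1.17) and WISP2 (3.25). It was lower in AQP1 (-3.88), BIRC5 (-1.80), CDK1 (-2.70), CKAP2 (-2.63), DCTD (-2.77), DTX3L (-0.466), EDMPN1 (-4.04), EXO1 (-2.60), GART (-1.05), HAS2 (-2.91), IL8L2 (-3.78), MYOCD (-1.02), PARP9 (-0.491), RCL1 (-1.40), RPL6 (-0.301), SLC8A1 (-2.23), STC2 (-1.08), TFAM (-0.69), TNFAIP6 (-2.45) and VNN1 (-2.90).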

How the results depend on the processing

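Across the settings tried, none of the 117 genes named by rule turned direction where the main or the other setting called a change. Fits with the suspension libraries as 1 group, no trend, group variance weights, the block or no filter leave the combined change as it is. These settings could therefore not turn a direction, and many of the named genes were chosen for a large change. A turn without a call was not counted. Of 2203 values for these genes under 19 alternatives, 2184 kept their side of the threshold, 15 lost it and 4 gained it. The 15 lost calls came from treating the 6 suspension libraries as 1 group, which ended those of ANKRD1, BIRC5, CDK1, CKAP2, EXO1, TFAM, SLC8A1, AQP1, DKK3, EDMPN1, OvoDA1-2, HAS2, VNN1 and WISP2 at adjusted p of 0.054 to 0.77, and from WISP2 without 2D replicate 2 (0.12), while the 4 gained calls were of GAPDH. That fit, in which the difference between 3D_E and 3D_L counts as spread, lowered the changed genes from 6423 to 3547, with 2003 higher and 1544 lower. A pseudocount of 5 lowered the strong changes to 650 and the shared changes to 123, of which 99 remained from the 252, since a larger pseudocount shrinks low genes. A similarity limit of 0.25 gave 134 shared genes, a limit of 1 gave 635, and asking for an interval within -1 and 1 gave 394. Leaving out each library gave 5186 to 7415 changed, 1224 to 1453 strong and 242 to 276 shared genes. Scaling changed the balance of directions: median of ratios gave 3067 higher and 3378 lower genes and quantile normalization 2860 and 3214, and the shared split of 183 and 69 became 161 and 89 or 130 and 108; the cause was not tested. The replicate block gave 6167 changed, 1308 strong and 252 shared genes. The same 252 shared genes were kept with no filter on low values, no trend, group variance weights and the block. These settings alter p-values only, and not the levels and differences that the other limits of a shared change use.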

Other observations

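Of 7404 pairs of neighbouring tested genes, by their order in the RefSeq table of the assembly GRCg7b, 5 pairs had both genes in the shared group, and each pair moved in 1 direction. As 2.41% of all tested genes are shared, a few such pairs are to be had without any relation between neighbours, and nothing is read from the count. They were CAMKV with MST1R (combined changes 2.15 and 1.81), PHF19 with TRAF1 (1.54 and 1.25), FGF2 with NUDT6 (-1.74 and -1.08), TNFAIP2 with EXOC3L (1.69 and 2.97), and TFPI with CALCRL (1.83 and 1.09). The genes of a pair may overlap, and reads of overlapping genes cannot be assigned without strand, which the sources do not state.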
